A study of Salmo salar with 54 samples.

Results

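A set of 84 genes had higher mean transcript levels in Atlantic salmon liver cells at every low dose of 2 arsenic compounds, relative to the unexposed cells of the same compound. They were chosen among 18901 genes by group means of log2(value + 1), where a value is the number of reads of a gene divided by the size factor of its library (a normalised read). A gene was taken when its mean was at least 0.2 higher at 5, 10 and 50 µM arsenosugar (AsSug) and at least 0.2 higher at 0.1 µM arsenite (AsIII), and when it averaged at least 30 normalised reads in both controls. Of the 15779 genes that reached this level, 0.532% met the 4 conditions. Another 6 identifiers were left out by the rule. The differences in these 4 comparisons chose the genes, so they are given as a description.

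The cells were primary hepatocytes isolated by collagenase perfusion from the livers of 6 male Atlantic salmon (Salmo salar) and cultured on 3-dimensional scaffolds. Every fish supplied cells for all groups. Exposure lasted 48 h, to arsenosugar glycerol, with a control and doses of 5, 10, 50 and 250 µM, or to arsenite, with a control and doses of 0.1, 1 and 3 µM, each compound on plates of its own. Each of the 9 groups therefore held 6 libraries, 1 from each fish (54 libraries), and groups differ by dose but not by animal. The cultures may hold other liver cells that passed the isolation.

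Arsenite is inorganic trivalent arsenic, which binds the thiol groups of proteins. Arsenosugars are organic arsenic compounds of algae and seafood. Known responses of liver cells to arsenic include induction of chaperones and of oxidative stress genes, and changes in cytochrome P450 genes. Cytochrome P450 1A, made from cyp1a, oxidises planar aromatic compounds and is switched on through the aryl hydrocarbon receptor. Gene roles given below are those known from mammals or zebrafish, unless stated for salmon.

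Depth was 8.79 to 24.0 M reads in the 48 libraries outside the 250 µM group and 0.898 to 5.38 M at 250 µM AsSug, a group whose RNA integrity the labels set apart. The 250 µM libraries also form a library series of their own in the file headers, as do the 24 AsIII libraries, so dose and library series cannot be told apart at 250 µM, nor compound and series between the 2 control groups. One library stood apart, that of fish 1 at 0.1 µM AsIII. Differences of single genes from the control had an SD of 0.82 in it, against 0.23 to 0.34 in the other 5 fish of that comparison, and it had the lowest depth of the 48. The 9 measured hepatocyte markers together gave 1074200 to 1669300 normalised reads at 0.1 µM AsIII and 1055100 to 1378000 in the AsIII control. No marker of any measured list was at 0 in a group.

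The set held 23 genes with a gene symbol or synonym and 61 with a locus name only in the RefSeq table of the assembly Ssal_v3.1. Of the 84, 83 were protein-coding and 1 was a long non-coding RNA. Genes raised in all 3 AsSug comparisons numbered 168 (1.06% of eligible genes), and those raised at 0.1 µM AsIII numbered 1712 (10.8%). The 84 were thus 50% of the AsSug list and 4.91% of the AsIII list. The overlap of the lists was not tested. Among eligible genes, 16 met the AsSug conditions but were lower by as much at 0.1 µM AsIII, 15 showed the opposite pair, and 25 were lower in all 4 comparisons. The smallest of the 4 differences was 0.20 in the 3 genes just inside the threshold, GeneIDs 106601989, 106591397 and 106609328. It was also 0.20 in the 3 just outside it, nhsl1b, GeneID 106613733 and cssa01h5orf63, so the members just inside differ little from genes that were not taken.

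The differences were small for most members. Across the 84, the log2 difference from control had a median of 0.43 at 5 µM AsSug (0.21 to 1.13), 0.34 at 10 µM (0.20 to 1.4), 0.36 at 50 µM (0.21 to 1.59) and 0.39 at 0.1 µM AsIII (0.21 to 1.12). In 8 members at least 1 of the 4 differences passed 1. There was no common order over the AsSug doses: the difference fell from 5 over 10 to 50 µM in 17 members and rose over these doses in 5. The largest of the 4 differences was at 5 µM AsSug in 30 members, at 0.1 µM AsIII in 29, at 50 µM AsSug in 19 and at 10 µM in 6.

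Averaged over the 84 genes, log2 levels in the AsSug control libraries ran from 6.85 over a median of 7.23 to 7.74. At 5 µM they ran from 7.20 over 7.78 to 7.97, at 10 µM from 7.34 over 7.57 to 8.11, at 50 µM from 7.48 over 7.61 to 7.93 and at 250 µM from 7.41 over 7.56 to 8.04. In the AsIII control they ran from 7.05 over 7.33 to 7.81, at 0.1 µM from 7.15 over 7.95 to 8.42, at 1 µM from 6.86 over 6.97 to 7.32 and at 3 µM from 7.15 over 7.24 to 7.39. Every exposed group overlapped its control. The spread between fish was widest at 0.1 µM AsIII and narrowest at 3 µM.

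**Figure D1:**
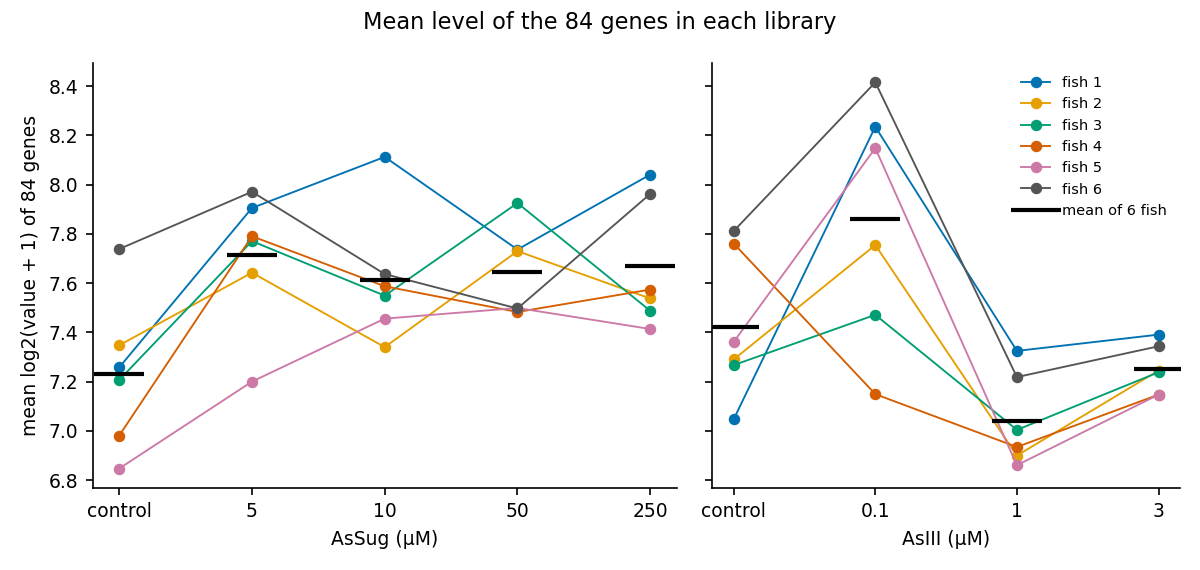
Mean log2(value + 1) of the 84 genes (vertical axis) in each of the 54 libraries by dose in µM (horizontal axis), for AsSug on the left and AsIII on the right. Coloured lines join the libraries of 1 fish and black bars are means of 6 fish. Means are above the control at 5, 10, 50 and 250 µM AsSug and at 0.1 µM AsIII, and below it at 1 and 3 µM AsIII. Against these means, fish 4 goes down at 0.1 µM AsIII and fish 6 goes down at 10 and 50 µM AsSug. Fish 2 is slightly lower at 10 µM AsSug (7.34, against 7.35 in its control). Fish 1 is above its AsIII control (7.05) at 1 µM (7.32) and 3 µM (7.39).

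The fish did not move alike. At 5 µM AsSug the median difference of the 84 genes was above 0 in 6 of 6 fish, between 0.18 in fish 6 and 0.77 in fish 4. At 10 µM it was -0.13 in fish 6 and 0.16 to 0.73 in the other 5, and at 50 µM it was -0.16 in fish 6 and 0.37 to 0.64 in the others. At 0.1 µM AsIII it was -0.40 in fish 4, where 15 of the 84 genes were higher than in the control, and 0.21 to 1.14 in the other 5 fish, with the highest value in fish 1. Fish 6 had the highest AsSug control level of the 84 genes (7.74), and fish 4 had the second highest AsIII control level (7.76). The highest AsIII control level was in fish 6 (7.81), whose median difference at 0.1 µM was 0.63, with 79 of 84 genes higher.

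The members also varied more between unexposed fish than other genes did. In the AsSug controls the SD of log2 levels over 6 fish had a median of 0.44 in the 84 genes and 0.20 in all eligible genes, and in the AsIII controls 0.41 and 0.18. In each control group, 67 of the 84 (79.8%) were among the most variable 25% of eligible genes. These SDs come from control libraries that the rule used. Over the 36 libraries of the rule, after group means were removed, the median pairwise correlation was 0.35 among the 84 genes and -0.00 among all eligible genes. In the 12 libraries at 1 and 3 µM AsIII it was 0.14 and 0.01. These pairs share libraries and fish, so they are a description of how far the genes went up and down together within a group. The part of this shared variation between fish in the differences was not tested.

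The rule was repeated with each fish left out in turn, and the genes it chose in 5 fish were read in the sixth. It chose 50 to 117 genes, of which 35 to 73 were among the 84. In the fish left out, the median difference was above 0 in 6 of 6 fish at 5 µM AsSug (0.08 to 0.61). At 10 µM it was above 0 in 5 of 6, with -0.29 in fish 6, and at 50 µM in 5 of 6, with -0.35 in fish 6. At 0.1 µM AsIII it was above 0 in 5 of 6, with -0.28 in fish 4 and 0.74 as the highest. The medians of all eligible genes in the same fish lay between -0.02 and 0.02. Scaling by size factors keeps such medians near 0, so they do not show how far another set of variable genes would move. The controls of a fish left out serve all 3 of its AsSug comparisons, so those values are not independent of each other. The gene sets chosen also overlap, and the members varied together within groups. The values are therefore a description and not separate tests.

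**Figure D2:**
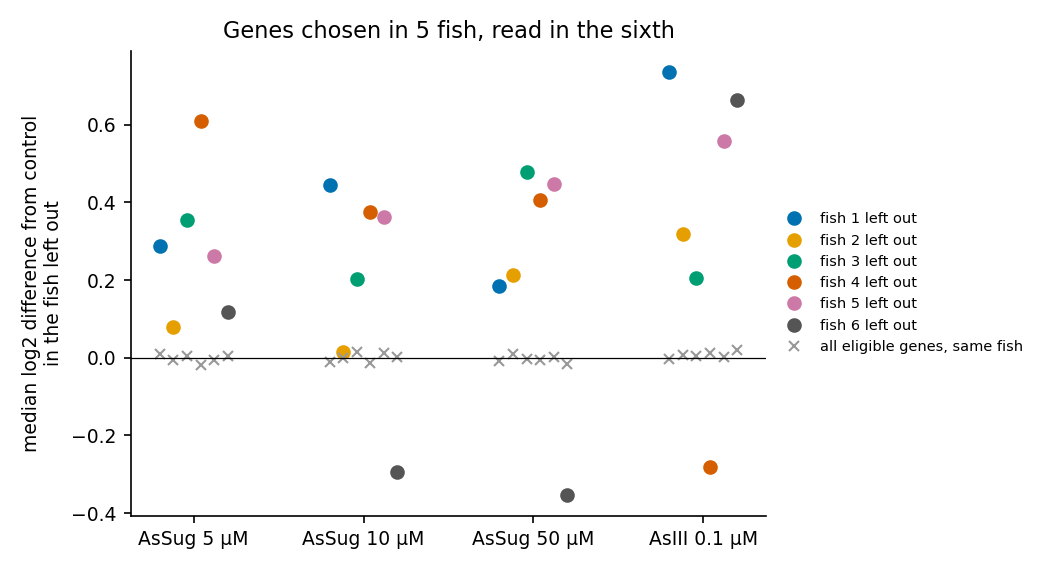
Median log2 difference from control (vertical axis) in the fish that was left out when genes were chosen, for the 4 comparisons (horizontal axis). Each coloured point is 1 fish and grey crosses are the medians of all eligible genes in the same fish. Points lie above 0 except fish 6 at 10 and 50 µM AsSug and fish 4 at 0.1 µM AsIII.

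Few single genes passed the test across all genes in these comparisons. At 5 µM AsSug, 12 members were called higher (limma adjusted p below 0.05), where 0.085% of all genes tested were. At 10 µM 2 members were called (0.0159% of all genes), and at 50 µM 17 (0.372%). At 0.1 µM AsIII 0 members were called (0.0106% of all genes). The rule used these comparisons, so nothing is read from the counts. The 31 calls fell on 18 members. Higher levels in 6 of 6 fish were seen in 33 members at 5 µM (2.06% of all genes), 19 at 10 µM (1.72%), 16 at 50 µM (2.27%) and 8 at 0.1 µM AsIII (1.75%). Over all 24 differences, from 6 fish in 4 comparisons, a member was higher in 13 to 24, with a median of 20.

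The genes of cytochrome P450 1A came first among the named members. cyp1a with GeneID 100136916 had 1854, 5903 and 8876 normalised reads in the AsSug control (lowest, median and highest fish), 6064, 9481 and 13374 at 5 µM, 6660, 11419 and 13635 at 10 µM, 4268, 9109 and 11967 at 50 µM and 135.6, 507 and 621.3 at 250 µM. The control range overlapped those at 5, 10 and 50 µM, and every 250 µM library was below every control library. The log2 differences were 0.88, 1.01, 0.69 and -3.69 in dose order. In the AsIII groups it had 1778, 2946 and 3483 normalised reads in the control, 2094, 3783 and 4107 at 0.1 µM, 690.6, 735.6 and 1318 at 1 µM and 658.3, 818.5 and 1223 at 3 µM. The difference at 0.1 µM was 0.27, with 6 of 6 fish higher, and both higher doses lay below the whole control group (-1.64 and -1.62).

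The second cyp1a gene, GeneID 100136926, also had higher means at the low doses. Its log2 differences were 0.85, 1.12 and 0.69 at 5, 10 and 50 µM AsSug and 0.24 at 0.1 µM AsIII. Unlike the first gene, it was lower at 0.1 µM AsIII in fish 1 (550.45 normalised reads against 616.69 in the control) and fish 6 (834.45 against 1018.7). The second gene had 20.3, 56.7 and 136.9 normalised reads at 250 µM AsSug, against 872.5, 3450 and 5822 in the AsSug control (a difference of -5.64). At 1 and 3 µM AsIII the differences were -2.22 and -2.91. Between 3 and 1 µM, whose libraries the rule did not use, it fell by 0.69 ± 0.19 (standard error; adjusted p = 0.00478; lower in 6 of 6 fish; adjusted p = 0.0972 without the fish term), with 88.2, 132.7 and 315.7 normalised reads at 3 µM and 158.4, 244.5 and 456.7 at 1 µM. The first cyp1a did not pass in that comparison (0.02 ± 0.12, adjusted p = 0.879; higher in 3 of 6 fish). The 2 genes carry the same name, and reads of near-identical copies may have been divided between them. How shared reads were counted is not known from the labels.

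The third measured gene of the xenobiotic list was tiparp, another target of the aryl hydrocarbon receptor. It was not a member, with differences of 0.07, 0.02 and -0.12 at 5, 10 and 50 µM AsSug and 0.22 at 0.1 µM AsIII. It was higher where both cyp1a genes were lower: by 1.36 at 1 µM AsIII, 2.04 at 3 µM and 1.16 at 250 µM AsSug. Between 3 and 1 µM it rose by 0.68 ± 0.19 (adjusted p = 0.00443), so 1 of the 3 genes of the list rose and 1 fell there, where 27.8% of all genes rose and 24.4% fell.

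hsp30 is a small heat shock protein gene, and its low-dose differences were uneven between fish. It had 1.098, 21.1 and 534.8 normalised reads in the AsSug control, 12.6, 36.3 and 265.7 at 5 µM, 5.765, 27.7 and 114.1 at 10 µM and 8.69, 19.7 and 351.8 at 50 µM. In fish 1 and 2 the AsSug controls held 1.098 and 1.99 normalised reads, and the other 4 held 17.7 to 534.8. Only 3 of 6 fish were higher at each of these 3 doses, and over all 24 differences it had the lowest count of the set (13). Its log2 differences were 1.09, 0.22 and 0.36 at 5, 10 and 50 µM AsSug and 0.55 at 0.1 µM AsIII. With 5 in place of 1 added to each value, the difference at 10 µM AsSug was -0.03, so hsp30 then failed the rule. Its medians at 50 µM AsSug and at 0.1 µM AsIII were below those of the controls. In the AsIII groups it had 2.30, 25.4 and 123.6 normalised reads in the control, 10.2, 14.5 and 306 at 0.1 µM, 90.7, 184.4 and 344.6 at 1 µM and 4150, 6047 and 9488 at 3 µM, and only the 3 µM range lay wholly above the control. Between 3 and 1 µM it rose by 4.97 ± 0.63 (adjusted p = 9.35e-07; 6 of 6 fish), the largest rise among the 84. Of 16 measured heat shock and protein folding genes, 10 were called higher and 0 lower between 3 and 1 µM (27.8% and 24.4% of all genes), among them the co-chaperone bag3 (3.56 ± 0.22) and dnaja (1.52 ± 0.14). At 5, 10 and 50 µM AsSug and at 0.1 µM AsIII none of the 16 was called, and the list's medians were 0.03, -0.01, 0.03 and -0.10.

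bbc3 encodes a pro-apoptotic member of the BCL2 family that is a target of p53. It had 24.7, 62.9 and 105.5 normalised reads at 5 µM AsSug, against 25.8, 33.2 and 69.8 in the control, and 41.8, 62.3 and 166.9 at 0.1 µM AsIII, against 32.4, 46.1 and 59.6 in the control. Groups overlapped in both. It had 66.2, 102.1 and 110.3 at 1 µM AsIII, above every control fish, but 39.5, 48.2 and 70.2 at 3 µM. The fall between 3 and 1 µM was 0.91 ± 0.23 (adjusted p = 0.00202; lower in 6 of 6 fish). In the other 11 measured genes of the DNA damage and apoptosis list, 6 rose and 3 fell between these doses (27.8% and 24.4% of all genes), including rises in the cell cycle inhibitor cdkn1a (1.18 ± 0.23) and in btg2 (1.91 ± 0.13). At 5 and 50 µM AsSug 1 gene of this list was called lower in each, the stress-regulated sesn1. The share of all genes called lower at these doses is not given here, so nothing is read from these calls.

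Members with roles in transcription took different courses above the low doses. mxd4, a MAX partner that opposes MYC, had 522, 728.8 and 1632 normalised reads at 250 µM AsSug, against 78.5, 171.3 and 548.8 in the control. At 1 and 3 µM AsIII its mean was lower by 0.37 and 0.29, and both ranges overlapped the control. Fish 1 was higher at both doses (286.86 and 243.59 normalised reads, against 118.34 in its control). Fish 2 was higher at 3 µM (201.66 against 164.11). Its fish differed widely at 0.1 µM AsIII, with 102.9 in fish 4 and 1115 in fish 6. It was not called between 3 and 1 µM AsIII (0.08 ± 0.34, adjusted p = 0.856).

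bcl6 encodes a zinc finger repressor of transcription. In the AsIII groups it had 111.9, 130.4 and 158.0 normalised reads in the control, 135, 180.3 and 266.6 at 0.1 µM, 254.8, 267.6 and 363.1 at 1 µM and 356.6, 437.2 and 517.3 at 3 µM. The median was higher at each higher dose, and the 0.1 µM range overlapped the control. The rise between 3 and 1 µM was 0.62 ± 0.12 (adjusted p = 0.000121; 6 of 6 fish). It was also higher at 5, 10, 50 and 250 µM AsSug (0.30, 0.25, 0.31 and 1.12). It was 1 of 15 members at least 0.2 above control at all 7 doses. The rule itself required this at the low doses, and the higher doses were compared with the same controls. The count of 15 was not set against all genes, so nothing is read from it.

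tifa and hif1an fell between 3 and 1 µM AsIII. tifa, an adaptor of TRAF proteins that activates NF-kB, had 236.9, 277 and 319.4 normalised reads at 3 µM and 513.5, 579.5 and 669.4 at 1 µM, with no overlap (a fall of 1.07 ± 0.17, adjusted p = 2.1e-05). At 0.1 µM AsIII it had 260.1, 319.5 and 794.2, against 245, 277.3 and 311.4 in the control, and the highest value was the library of fish 1. hif1an encodes the asparagine hydroxylase that restrains hypoxia-inducible factor. It had 389.1, 539.6 and 646 at 3 µM and 583, 764.9 and 1160 at 1 µM (a fall of 0.62 ± 0.22, adjusted p = 0.0233; lower in 6 of 6 fish). Without fish 2 or 3 this call was lost, with adjusted p = 0.0507 and 0.0659. At 0.1 µM AsIII hif1an had 568.1, 1314 and 1857, against 587.1, 805.9 and 1260 in the control, with fish 4 lowest among the exposed and highest among the controls.

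Another 5 named members passed in that comparison. mfsd2ab, of a family that carries lysophospholipids into cells, had 124.8, 154.7 and 205.4 normalised reads at 3 µM AsIII and 26.2, 48.9 and 79.3 at 1 µM (a rise of 1.80 ± 0.18, adjusted p = 2.82e-08). The 1 µM libraries were also below every AsIII control library (93.9, 125.1 and 186.3). lpgat1, an acyltransferase of lysophospholipids, had 162.8, 172.6 and 182.5 at 3 µM and 82.9, 103.9 and 130.2 at 1 µM (a rise of 0.75 ± 0.12, adjusted p = 2.67e-05). itga9, the integrin alpha 9 subunit, had 133.7, 145.4 and 208.6 at 3 µM and 40.1, 53.5 and 71.5 at 1 µM (a rise of 1.51 ± 0.24, adjusted p = 1.82e-05). rttn, needed for centriole structure, had 23.7, 27.4 and 44.97 at 3 µM and 46.4, 50.0 and 55.6 at 1 µM (a fall of 0.73 ± 0.18, adjusted p = 0.00161). lrrc58b rose by 0.88 ± 0.16 (adjusted p = 0.000104). In each of these 5 genes all 6 fish showed the direction given.

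**Figure D3:**
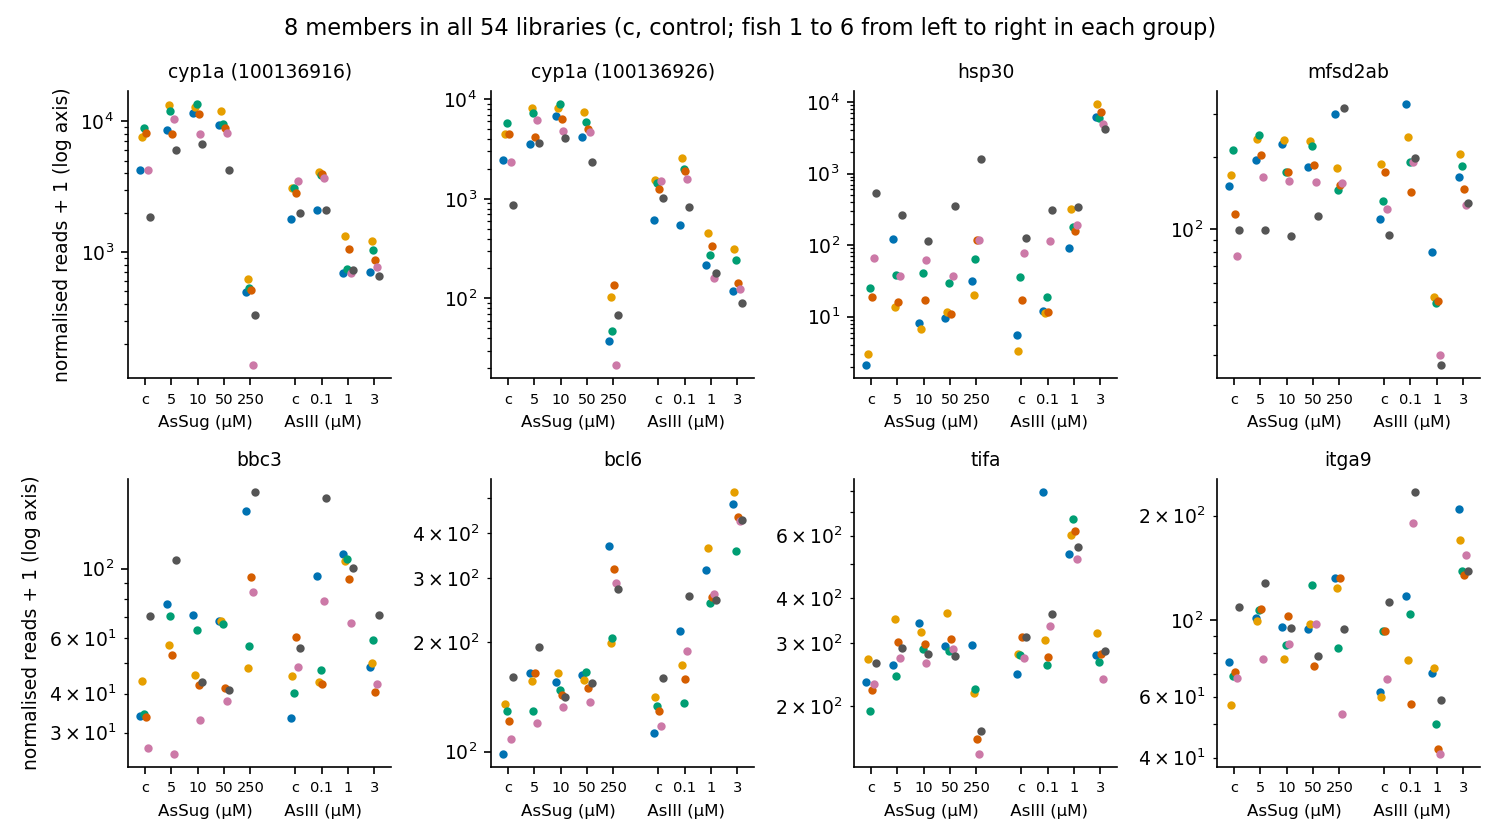
Normalised reads plus 1 on a log axis (vertical) in all 54 libraries for 8 named members, by dose in µM (horizontal; c is the control), with 1 point per fish in order 1 to 6 from left to right in each group. Both cyp1a genes drop at 1 and 3 µM AsIII and at 250 µM AsSug, hsp30 is at 4150 or more at 3 µM AsIII, and mfsd2ab is lowest at 1 µM AsIII. The low-dose groups overlap their controls in each panel, except for tifa at 50 µM AsSug. There every library (274.25 to 363.87) is above every AsSug control library (192.55 to 270.21).

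The remaining named members from the rule for naming were fblim1, which encodes a filamin-binding protein of cell adhesions, and tpi1b, a triosephosphate isomerase of glycolysis. fblim1 had 283.2, 680.7 and 2079 normalised reads at 0.1 µM AsIII, against 431.8, 559.4 and 1227 in the control. tpi1b had 386.1, 1120 and 2408 there, against 584.3, 753.8 and 1539. In both, the lowest exposed fish was below the lowest control. Neither passed between 3 and 1 µM (0.47 ± 0.24, adjusted p = 0.107, and 0.30 ± 0.27, adjusted p = 0.366), but both did in a fit of these 2 groups alone (adjusted p = 8.44e-06 and 0.00201). Of 15 measured genes of glucose metabolism, 5 rose and 3 fell in that comparison, near the 27.8% and 24.4% of all genes, while 0 were called at 5, 10 or 50 µM AsSug or at 0.1 µM AsIII. tpi1a, the other measured triosephosphate isomerase gene, differed by -0.05, -0.07 and 0.06 at these 3 AsSug doses and by 0.03 at 0.1 µM AsIII.

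The other 7 named members were spcs1 (a signal peptidase subunit), pim1 (a serine/threonine kinase), purg, aldh5a1 (succinate semialdehyde dehydrogenase), grcc10, rxrgb (a retinoid X receptor) and zfp36l1a (a factor of mRNA decay). Their 28 low-dose differences lay between 0.21 and 0.53. Between 3 and 1 µM AsIII pim1 rose by 0.73 ± 0.22 (adjusted p = 0.00906) and purg fell by 0.32 ± 0.13 (adjusted p = 0.0474). The call of purg was lost without fish 2, 3, 4 or 6 (adjusted p = 0.138, 0.113, 0.0756 and 0.15) and with edgeR or DESeq2 (0.0665 and 0.133). aldh5a1 had 282.1, 408.8 and 552.5 normalised reads at 250 µM AsSug, against 40.2, 46.5 and 50.6 in the control, and rxrgb had 828.7, 1361 and 1658, against 382.3, 490.4 and 667.3. Neither pair of ranges overlapped. spcs1 reached 767.5 normalised reads at 0.1 µM AsIII in fish 1, the library that stands apart, where the median was 130.5. Over the other 5 fish its difference was 0.02 in place of 0.44. pim1 (0.15), grcc10 (0.05) and zfp36l1a (0.09) were also under 0.2 over these fish, as were tifa (0.07), fblim1 (0.12) and tpi1b (0.17). The other named members stayed above 0.2. Of all 84 members, 26 were less than 0.2 higher at 0.1 µM over the other 5 fish, each against its own control.

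**Figure D4:**
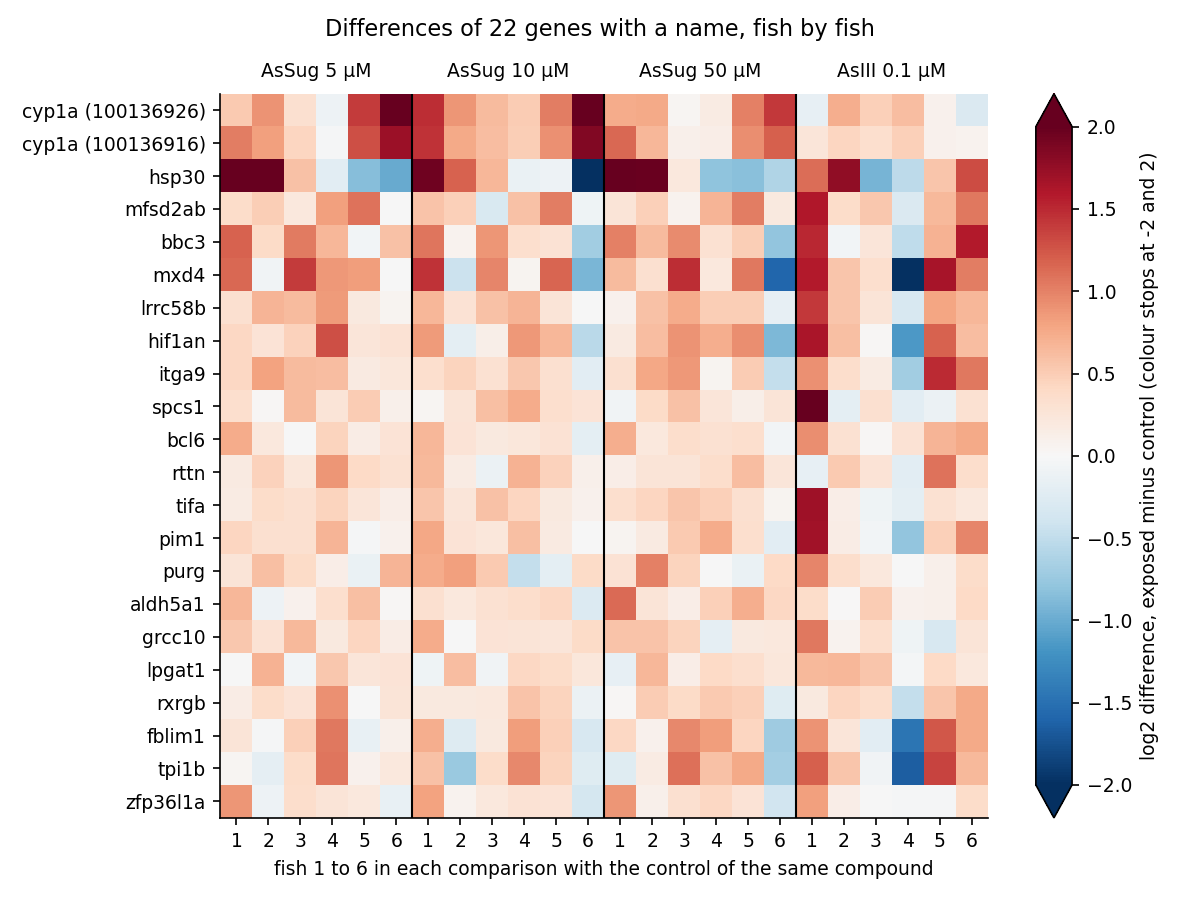
Log2 difference from control (colour) of 22 members with a gene name (rows) in each of 6 fish (columns) for 5, 10 and 50 µM AsSug and 0.1 µM AsIII. Red is higher and blue is lower in exposed cells, and colours stop at -2 and 2. Most cells are red, with blue cells in fish 6 at 10 and 50 µM AsSug, in fish 4 at 0.1 µM AsIII and in several fish for hsp30.

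Among the 61 members without a gene name, GeneID 106606596 had the largest sum of the 4 differences in the set (3.90). It had 40.8, 67.9 and 94.0 normalised reads at 5 µM AsSug, against 18.98, 31.5 and 43.9 in the control, and 28.8, 81.1 and 141.5 at 0.1 µM AsIII, against 12.7, 36.8 and 48.3 in the control. At 1 µM AsIII it had 2.486, 7.76 and 14.2. GeneID 100136426 was the one member higher in 24 of 24 fish differences. It had 80704, 124410 and 214690 normalised reads at 0.1 µM AsIII and 67399, 90871 and 165000 in the control, so the ranges overlap although each fish was higher. Its differences were 0.40, 0.26 and 0.42 at 5, 10 and 50 µM AsSug, and -2.08 and -2.36 at 1 and 3 µM AsIII.

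GeneID 106585128 had the largest difference of the set at 50 µM AsSug (1.59) and the second largest at 250 µM (4.58, after 5.57 in GeneID 106601989). Its medians were 43.6 normalised reads in the control, 68.1 at 5 µM, 53.8 at 10 µM, 121.2 at 50 µM and 886.0 at 250 µM, and every 250 µM library (715.6 to 1207) was above every control library (13.4 to 64.8). In the AsIII groups it was lower at 1 and 3 µM, by 0.89 and 1.89. GeneIDs 106587140 and 106587141 are neighbours in Ssal_v3.1 with no gene between them. Their differences at 5, 10 and 50 µM AsSug and 0.1 µM AsIII were 0.59, 0.37, 0.50 and 0.54 in the first and 0.55, 0.32, 0.38 and 0.75 in the second, and at 1 µM AsIII both were lower, by 1.39 and 1.21. GeneID 106577211 lies 3 genes from hif1an, and 1 other pair of members, GeneIDs 106566577 and 106566507, has 1 gene between them.

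The differences between 3 and 1 µM AsIII use no library of the rule. Their standard errors and calls in the main fit do, as all 24 AsIII libraries shared 1 estimate of the spread. Of the 84 members, 28 rose and 19 fell, where 27.8% of all genes rose, 24.4% fell and 52.2% were called in either direction. Thus 56% of the members were called in the main fit, near the share of all genes there. In a fit of these 2 groups alone, which holds no library of the rule, 42 members rose and 23 fell. In that fit 65 of the 84 members were called, a larger share than the 64.6% of all genes. Of all genes, 35.3% rose and 29.2% fell in it. With only the library of fish 1 at 0.1 µM AsIII left out of the shared fit, 32 members rose and 21 fell, and 61% of all genes were called. The median difference in the main fit was 0.19 in the members and 0.03 in all genes. With library totals in place of size factors the medians were 0.00 and -0.16. Among the named members 7 rose, 6 fell and 10 were not called, and among the unnamed 21 rose, 13 fell and 27 were not called. A change of at least 2-fold was called in 18 members (21.4%) and in 11.4% of all genes. The largest falls were in GeneID 106605366 (2.37 ± 0.20, adjusted p = 2.65e-09) and GeneID 106611783 (2.11 ± 0.20, adjusted p = 1.19e-08), and the second largest rise was in GeneID 106579731 (2.18 ± 0.26, adjusted p = 5.11e-07). All 6 fish showed the direction given in these 3 genes. Marker sums of some other cell types also differed between these doses without overlap. The 4 stellate and fibroblast markers summed to 1647 to 2148 normalised reads at 3 µM and 1005 to 1500 at 1 µM, against 319 to 678.4 in the control. The 3 endothelial markers gave 421.2 to 562.6 at 3 µM and 259.9 to 345.6 at 1 µM, against 173.7 to 251.5 in the control. Single markers did not all move alike. Between 3 and 1 µM, 1 endothelial marker was called higher and 1 lower. Of the stellate and fibroblast markers, 2 were called higher and 1 lower. At 3 µM against the control these counts were the same, where 36% and 35.1% of all genes were called higher and lower. The 2 cholangiocyte markers gave 3039 to 3373 at 3 µM and 2280 to 2731 at 1 µM, against 2847 to 3527 in the control. The 9 hepatocyte markers overlapped between 3 µM (800710 to 953980) and 1 µM (736320 to 1030000), and both lay below the control (1055100 to 1378000). The macrophage and granulocyte, lymphocyte and erythrocyte marker sums overlapped between 3 and 1 µM. The part of these markers in the members' differences was not tested.

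**Figure D5:**
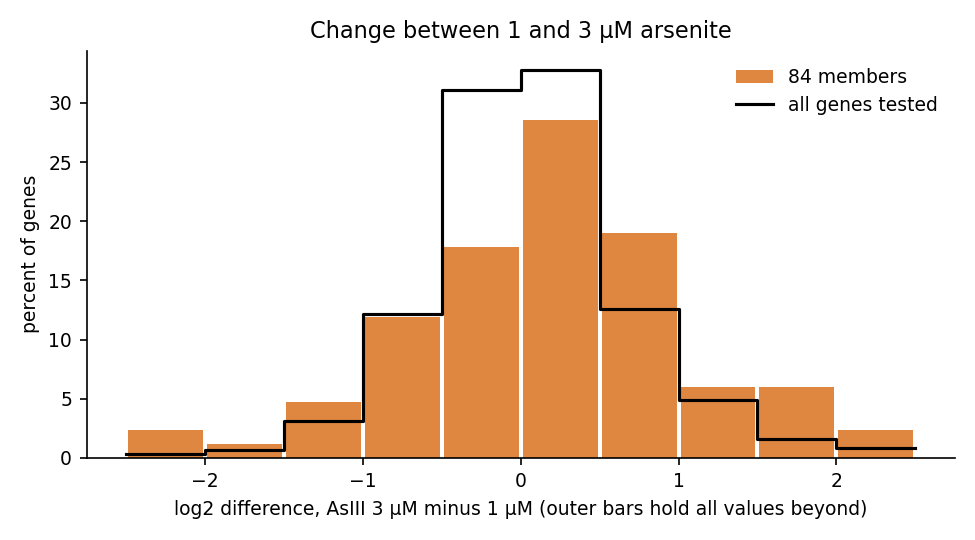
Percent of genes (vertical axis) by log2 difference between 3 and 1 µM AsIII in steps of 0.5 (horizontal axis), with bars for the 84 members and a black line for all genes tested; the outer steps hold all values beyond them. The members spread to both sides of 0, with 52 of 84 above it.

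Against their control, the higher doses of AsIII moved the members both ways. These comparisons share the control libraries with the rule, so the values are a description. At 1 µM 17 members were called higher and 35 lower, where 29.8% and 27.3% of all genes were (57% in either direction), and the medians were -0.31 in the members and -0.01 in all genes. At 3 µM 23 were called higher and 31 lower, where 36% and 35.1% of all genes were (71.1%), with medians of -0.13 and -0.02. The fish differed here too. At 1 µM the median of the members was 0.18 in fish 1 and -0.93 to -0.10 in the others. At 3 µM it was 0.46, 0.09 and 0.18 in fish 1, 2 and 3, and -0.60, -0.13 and -0.38 in fish 4, 5 and 6. Counted by a difference of 0.2, 36 members were lower at both doses and 22 were higher at both. This count was not made over all genes, so nothing is read from it. Between the controls of the 2 compounds, the members were higher in the AsIII control, by a median of 0.19 (73 of 84 above 0), against 0.01 in all eligible genes.

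At 250 µM AsSug, 39 members were called higher and 20 lower, where 26.7% and 36.5% of all genes were (63.2% in either direction). This comparison also shares its control libraries with the rule. A gene that was low in those libraries is favoured both by the rule and here, so the counts and medians are a description. The median difference was 0.44 in the members and -0.20 in all genes, or 0.74 and 0.09 with library totals. By a difference of 0.2, 45 members were higher, 30 lower and 9 in between. Of the 36 members lower at 1 and 3 µM AsIII, 16 were lower and 16 were higher at 250 µM AsSug. The counts by a difference of 0.2 were not made over all genes, so nothing is read from them. Cell type marker sums also differed at 250 µM. The 9 hepatocyte markers summed to 248370 to 638110 normalised reads there, against 1000100 to 1334000 in the control, and the 1 erythrocyte marker gave 508.8 to 728.6, against 251.8 to 364.9. Of the 9 hepatocyte markers, 3 were called higher and 6 lower. The 3 macrophage and granulocyte markers summed to 650.9 to 1607 normalised reads there, against 2537 to 3083 in the control, and the 4 stellate and fibroblast markers to 157.4 to 250.5, against 309.5 to 722.9. The 3 endothelial markers summed to 264.4 to 331, against 198.2 to 243.7, with 1 of them called higher and 1 lower. The part of all these markers in the members' differences was not tested. In bulk libraries, fewer cells of a type and less RNA per cell cannot be told apart.

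At the low doses, the marker sums of other cell types overlapped those of the controls. The cholangiocyte markers had median log2 differences of 0.24, 0.18 and 0.27 at 5, 10 and 50 µM AsSug and 0.27 at 0.1 µM AsIII. At 0.1 µM AsIII the endothelial median was 0.35 and the stellate and fibroblast median 0.20, against -0.10 to 0.13 at the AsSug doses. Medians of the other lists lay between -0.05 and 0.14. None of these markers was called, and their part in the members' differences was not tested. The 3 macrophage and granulocyte markers gave 2619 to 6166 normalised reads at 0.1 µM AsIII, against 2532 to 3251 in the control, and the highest of these was again fish 1, with 2619 to 3280 in the other 5 fish. The 2 cholangiocyte markers were lowest in the same library, with 2095 normalised reads against 3020 to 3556 in the other 5. No marker gene of another cell type was among the 84. Each of these lists held only 1 or 2 genes that reached the control level of the rule, so nothing is read from this. Without the library of fish 1 at 0.1 µM AsIII the rule chose 71 genes, of which 67 were among the 84. In the shared fit the median difference of the 84 at 0.1 µM AsIII was then 0.37 in place of 0.39. Both values keep the control of fish 1, the lowest AsIII control (7.05). Over the other 5 fish, each against its own control, the median was 0.28, with 79 of 84 above 0 and 58 at least 0.2 higher.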

How the data were processed

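The deposited table gives a signal per gene: reads that the authors divided by a size factor per library, a unit tested on the values, which are whole reads after division by each library's step (largest deviation 0.0931, tolerance 0.1). HISAT2, featureCounts (Subread) and DESeq2 1.40.2 are named in the submitters' processing notes. The build, the strand setting and the counting of reads shared between copies are not stated in what was used here. Names came from the RefSeq table of Ssal_v3.1 (18900 of 18901 identifiers matched). No sequences are printed.

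On log2(value + 1), limma 3.58.1 in R 4.3.3 was fitted (empirical Bayes, mean trend) to genes that reached a value of 10 in 6 or more libraries of the fit. The 24 AsIII libraries shared a fit, as did the 24 of AsSug up to 50 µM, and 250 µM was fitted with its control. Fish was a term, as the labels give each number to 1 fish across all groups. After removal of group means, libraries of 1 fish in different groups resembled each other more than those of different fish (median r across genes 0.234 against -0.0432 in AsIII, 0.364 against -0.0744 in AsSug up to 50 µM, 0.0963 against -0.0296 at 250 µM). Tests were two-sided, with Benjamini-Hochberg adjustment across the genes of a comparison and a threshold of 0.05. Fold changes are log2 with standard errors, and the added 1 shrinks those of low genes. The scripts were tested on simulated data. edgeR 4.0.16 and DESeq2 1.42.0 on recovered reads, other scalings, a pseudocount of 5 and leaving out each fish were alternatives. Leaving out fish 1 at 0.1 µM AsIII was added after the data were seen.

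The members, gene lists and tests were chosen with earlier results of these data known. Genes named in full were, among members with a name, the 8 with the largest sum of the 4 differences, the 6 highest in the controls, those higher in 6 of 6 fish in all 4 comparisons, the 5 with the largest called rise and fall between 3 and 1 µM AsIII, the 4 highest and lowest at 1 µM AsIII, and members of a gene list. The other named members, and those without a gene name, were added after their values were seen. One member that the naming rule takes is not reported here.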

Additional observations from a re-analysis of the deposited data

Results flagged for a closer look

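For 15 members named by rule and the mean of the 84 genes, 144 sets of 6 fish were examined for a single fish far from the other 5, and 6 stood out. Chance alone flags about 1 in 20 such sets. tifa at 0.1 µM AsIII had 794.2 normalised reads in fish 1, the library that stands apart, and 361.6 in the next highest fish. hif1an had 1455 in fish 1 at 10 µM AsSug (next 820.3) and 461.1 in fish 5 at 5 µM (next lowest 905). hsp30 had 351.8 in fish 6 at 50 µM AsSug (next 36.1), and this fish also had the highest hsp30 level in the AsSug control. bbc3 had 66.17 in fish 5 at 1 µM AsIII (next lowest 91.7), and lrrc58b had 203.5 in fish 2 at 3 µM AsIII (next lowest 244.9).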

How the results depend on the processing

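The set itself depends on its settings. The rule gave 84 genes, 50 with a control level of at least 100 normalised reads, 32 with differences of at least 0.3, and 50 to 117 with 1 fish left out (50 without fish 1). Library totals gave 69 genes, TMM factors 91 and a pseudocount of 5 gave 81. The pairing of libraries by fish matters for the calls in the 4 low-dose comparisons. Without the replicate block the 31 calls became 0, and with 1 fish left out they numbered 10 to 65 (10 without fish 2, 18 without fish 3, 13 without fish 5 and 65 without fish 6). Between 3 and 1 µM AsIII, the 47 calls became 40 without the block, 65 in a fit of these 2 groups alone and 40 to 51 with 1 fish left out. The share of all genes called moved as well. It was 52.2% in the main fit, 46.9% without the block, 64.6% in the fit of 2 groups and 46% to 57.5% with 1 fish left out. The median there was 0.19, 0.17 to 0.23 with 1 fish left out and 0.0020 with library totals, a scaling that moved the median of all genes as well. Calls against control, with 1 fish left out, numbered 48 to 59 at 1 µM (52 with all), 52 to 56 at 3 µM (54) and 54 to 57 at 250 µM AsSug (59). With all fish, 57%, 71.1% and 63.2% of all genes were called in these comparisons. Between 3 and 1 µM, 2 genes that were not called turned direction: cyp1a (GeneID 100136916) to -0.17 with library totals, -0.0029 with edgeR and -0.0667 to 0.0843 with 1 fish left out, and mxd4 to -0.11 with library totals and -0.0052 to 0.1463 with 1 fish left out. The call of cyp1a with GeneID 100136926 was lost without the block (adjusted p = 0.0972), as was that of purg (0.0609). purg also lost its call with a pseudocount of 5 (0.0595) and in the fit of 2 groups (0.0737). Members with few reads, such as hsp30 in the controls, are limited by depth.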
